A study of Mus musculus with 2 samples.

Results

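Macrophage marker genes were followed in glomeruli, the capillary tufts that filter blood in the kidney, isolated from male mice of the KK/Ta strain, which is prone to obesity and type 2 diabetes. All were 20 weeks old. One group had a high-fat diet (HFD), the other had normal fat chow (Chow), and there is 1 array for each diet. The design text mentions 3 mice. The labels do not say if RNA of several animals was pooled for an array. The 10 genes were Adgre1, Adgre4, Cd68, Csf1r, Lyz2, Mpeg1, Ms4a6c, Mrc1, Chil3 and Lgals3. Every probe set, a group of short oligonucleotides for a transcript, was taken whose platform symbol is exactly one of these names. That gave 14 probe sets of the 45037 that are not controls, and 10 genes of 18193. Of these genes 7 had 1 probe set each, Adgre4 and Ms4a6c had 2 each, and Csf1r had 3. The genes were selected on earlier results of the HFD minus Chow contrast, so every difference below describes these 2 arrays, and no test between the diets can be made with 1 array each.

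Macrophages are phagocytes that settle in tissues during development or arrive as monocytes from blood. Most depend on signalling through the CSF1 receptor, and they are recognised by surface receptors such as F4/80, by lysosomal proteins and by secreted antimicrobial proteins. The healthy glomerular tuft holds few of them, while the kidney interstitium around it holds many, and macrophages in glomeruli are a known feature of diabetic kidney disease. In RNA from whole preparations, more cells of a type and more RNA per cell cannot be told apart.

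Lyz2, Cd68 and Chil3 were at least 2-fold higher on the HFD array, and Mrc1 was nearly level. The upstream sequences of these 4 genes are shown. Each is the 250 bases before the transcription start in RefSeq (GRCm38.p6), 5′ to 3′ on the gene's strand. Capitals mark GAGGAA, the core of the PU box bound by the myeloid transcription factor PU.1, and the related ETS-type core GGAAGT, searched on both strands, so that matches on the other strand appear as TTCCTC and ACTTCC.
Lyz2, chr10:117282273-117282522, minus strand: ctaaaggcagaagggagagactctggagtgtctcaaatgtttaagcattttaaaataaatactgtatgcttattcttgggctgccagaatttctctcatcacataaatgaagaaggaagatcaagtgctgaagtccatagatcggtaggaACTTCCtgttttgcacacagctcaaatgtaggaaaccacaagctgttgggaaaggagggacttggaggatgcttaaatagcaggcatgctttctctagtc
Cd68, chr11:69666171-69666420, minus strand: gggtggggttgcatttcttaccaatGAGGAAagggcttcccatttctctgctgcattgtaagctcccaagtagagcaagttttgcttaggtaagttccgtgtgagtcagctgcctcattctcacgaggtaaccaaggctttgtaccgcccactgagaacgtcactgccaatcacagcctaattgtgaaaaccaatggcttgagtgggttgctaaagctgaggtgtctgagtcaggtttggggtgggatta
Chil3, chr3:106167565-106167814, minus strand: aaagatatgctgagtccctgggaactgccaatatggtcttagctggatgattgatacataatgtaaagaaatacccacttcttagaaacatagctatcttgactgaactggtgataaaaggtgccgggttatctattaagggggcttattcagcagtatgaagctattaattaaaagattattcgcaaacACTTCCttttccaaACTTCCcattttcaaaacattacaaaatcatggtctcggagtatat
Mrc1, chr2:14229164-14229413, plus strand: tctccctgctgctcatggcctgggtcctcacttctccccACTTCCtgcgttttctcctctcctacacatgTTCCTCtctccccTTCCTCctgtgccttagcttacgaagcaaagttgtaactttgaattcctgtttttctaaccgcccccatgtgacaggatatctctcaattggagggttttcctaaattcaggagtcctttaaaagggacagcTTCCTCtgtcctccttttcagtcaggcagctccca
The promoter table held 8 of the 10 genes, and a match to either core lay in 5 of those 8 upstream windows, against 36.7% of all 32851 windows of the same length. GAGGAA was present in 2 of the 8 (23.3% of all windows) and GGAAGT in 4 of the 8 (19.7%). Cd68 had 1 GAGGAA, from 225 to 220 bases before the start. Lyz2 had 1 match to GGAAGT, from 100 to 95 bases before the start, and Chil3 had 2, from 60 to 55 and from 46 to 41 bases before it. Mrc1 had the most matches, with 3 to GAGGAA and 1 to GGAAGT. Ms4a6c had 1 match to GGAAGT, while the windows of Adgre4, Mpeg1 and Lgals3 held neither string. A match of letters describes the sequence and does not show binding, and its part in the differences between the arrays was not tested.

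The 2 arrays were alike in scale. Their median deposited signals were 42.3 (HFD) and 44.9 (Chow), and dividing each array by its median moved all log2 differences up by 0.083. The array median also served as the floor: a value under it was raised to it, and a probe set above it on the HFD array only has a lower bound, written as at least N-fold. For Gapdh the 3′ probe set was 3.43 times as bright as the 5′ one in HFD and 3.59 times in Chow, a ratio that reflects how complete the labelled RNA was. After centring, control probe sets for Gapdh were higher in HFD by 0.20 to 0.28 log2 units and those for beta-actin by 0.14 to 0.28. The median over 19 mouse control probe sets was 0.24, the same direction as the member differences below. The podocyte markers that define the glomerulus were bright on both arrays, with Nphs1 (nephrin) at 5421 in HFD and 5427 in Chow and Podxl at 15316 and 16261.

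Of the 14 macrophage marker probe sets, 11 exceeded the floor on both arrays, 2 on the HFD array only and 1 on neither. The 13 that could be compared were all higher on the HFD array, and 9 of them by 2-fold or more, with 0 lower by 2-fold. The 2 above the floor on the HFD array only, of Cd68 and Adgre4, could only come out higher. Cd68 is among the 9. Among all 23419 probe sets that could be compared, 0.615% reached 2-fold upward, 0.295% reached it downward, and 56.6% were higher by any amount. At 1.5-fold the members counted 12 (3.66% of all) and at 3-fold 1, Chil3 (0.0897% of all). The median HFD minus Chow difference was 1.25 log2 units (2.37-fold) over the 13 probe sets and 0.038 over all probe sets above the floor. Counted once per gene, by the brightest probe set, 8 of the 10 genes reached 2-fold upward, and Csf1r and Mrc1 were the other two. Over all 11356 genes 0.722% did so, 0.159% reached 2-fold downward, and 62.2% were higher by any amount. Since the genes were chosen with this contrast known, these counts are given as a description only.

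**Figure D1:**
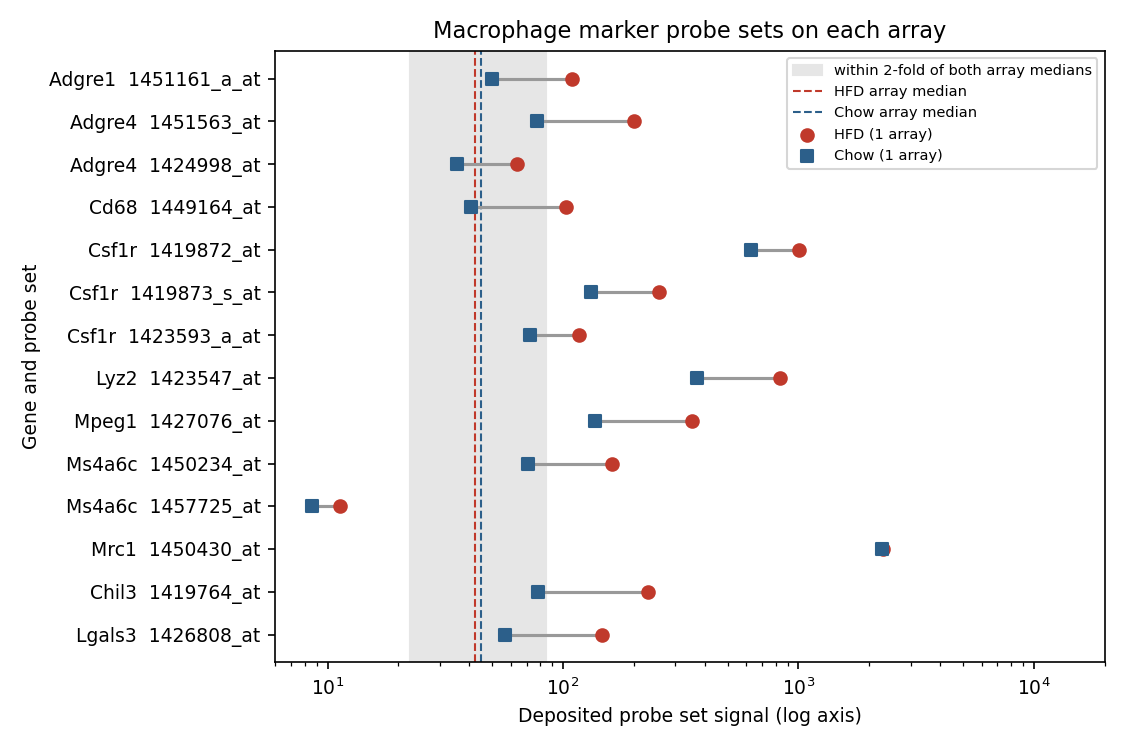
Deposited signal (log axis) of each macrophage marker probe set on the HFD array (red circles) and the Chow array (blue squares), 1 array per diet, with no error bars because there are no replicates. Dashed lines are the array medians (42.3 and 44.9) and the grey band covers signals within 2-fold of both. On the Chow array 8 squares and on the HFD array 1 circle lie near the median, and the Mrc1 symbols coincide at the right.

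Near the array median meant within 2-fold of it on that array. On the Chow array 8 of the 14 probe sets were near the median: those of Adgre1, Cd68, Chil3 and Lgals3, both of Adgre4, 1 of Csf1r and 1 of Ms4a6c. On the HFD array 1 was, the dimmer Adgre4 probe set. The share of all probe sets near the median was 20.4% on either array. Only the second Ms4a6c probe set lay further than 2-fold under the median, on both arrays. Signals of different probe sets are not on a common scale of abundance, so these positions do not order the genes by transcript number.

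The receptor genes come first. Adgre1 encodes F4/80, the adhesion receptor by which mouse tissue macrophages are usually stained. Its probe set, 1451161_a_at, read 109 in HFD and 49.8 in Chow (deposited signal, as for the values of the other genes). The HFD value was 2.58 times its array median and the Chow value 1.11 times, so Adgre1 was barely over the median on the Chow array. The difference was 1.22 log2 units (2.32-fold).

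Adgre4 encodes a myeloid receptor of the same adhesion family. Probe set 1451563_at had 200.1 in HFD and 77.6 in Chow, a difference of 1.45 log2 units (2.73-fold), and its Chow value was 1.73 times the median. Probe set 1424998_at had 64.0 and 35.5, with both values near the median and the Chow value under it. It was therefore at least 1.51-fold higher, with a difference of 0.94 before the floor was applied. Both probe sets of Adgre4 were higher in HFD.

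Csf1r encodes the tyrosine kinase receptor for CSF1 and IL-34, which macrophages need for survival and growth. Probe set 1419872_at had 1009 in HFD and 627 in Chow (1.70-fold). Probe set 1419873_s_at had 256 and 131 (2.07-fold), and 1423593_a_at had 117 and 72.4 (1.72-fold), with its Chow value near the median. All 3 were higher in HFD although their signals spanned 8.61-fold on the HFD array. Their log2 differences, 0.77, 1.05 and 0.78, lay within 0.28 of each other, against a median gap of 0.32 over 1233 genes with 3 probe sets above the floor on both arrays. Csf1r was thus higher by less than most of the other members in each of its probe sets, and the middle-brightness one alone passed 2-fold, with a deposited ratio of 1.96 before centring.

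Mrc1 encodes the mannose receptor CD206, an endocytic lectin of tissue macrophages that some endothelial cells also make. Its probe set, 1450430_at, had 2294 in HFD and 2267 in Chow, 54.2 and 50.5 times the array medians. The difference was 0.10 log2 units (1.07-fold), which is smaller than the scatter of 0.16 among probe sets of like signal (scaled median absolute deviation). Without centring it was 0.016. Mrc1 was the member whose signals on the 2 arrays were closest, and it ranked 4913 of 11356 genes by difference.

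The intracellular and membrane proteins of the phagocytic compartment followed. Cd68 encodes macrosialin, a glycoprotein of late endosomes and lysosomes. Its probe set, 1449164_at, had 103 in HFD and 40.8 in Chow. The Chow value lay under the array median, at 0.909 times it, so Cd68 was at least 2.42-fold higher, and the deposited values themselves stood at a ratio of 2.51.

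Mpeg1 encodes perforin-2, a pore-forming protein that macrophages direct against engulfed bacteria. Its probe set, 1427076_at, had 352 in HFD and 137 in Chow, a difference of 1.45 log2 units (2.72-fold). Both values were well over their medians, at 8.32 and 3.06 times. Scatter among probe sets of like signal was 0.24 log2 units.

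Ms4a6c encodes a membrane-spanning protein of the MS4A family found in myeloid cells. Probe set 1450234_at had 161 in HFD and 71.1 in Chow, a difference of 1.26 log2 units (2.40-fold), and its Chow value was near the median. Probe set 1457725_at had 11.3 and 8.56, under the floor on both arrays, so it gave no difference. Ms4a6c therefore rests on 1 probe set.

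The secreted proteins were the last group. Lyz2 encodes lysozyme M, the bacterial cell wall hydrolase of macrophages and neutrophils. Its probe set, 1423547_at, had 834 in HFD and 372 in Chow, 19.7 and 8.30 times the medians. The difference of 1.25 log2 units (2.37-fold) was 6.31 times the scatter of 0.20 at that signal, the highest such multiple among the members. Among the members that reached 2-fold, Lyz2 had the Chow signal farthest over the array median. The near-identical neighbour Lyz1, whose probes may read the same transcripts, had 2385 and 1033 (2.45-fold) and 773 and 260 (3.15-fold) in its 2 probe sets, so the lysozyme values cannot be assigned to either gene alone.

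Chil3 encodes Ym1, a chitinase-like lectin secreted by alternatively activated macrophages. Its probe set, 1419764_at, had 229 in HFD and 78.3 in Chow. The difference of 1.63 log2 units (3.10-fold) was the largest of the 10 genes and ranked 12 among 11356 genes. The Chow value was near the median, at 1.74 times it. Lgals3 encodes galectin-3, a galactoside-binding lectin of macrophages that collecting duct cells of the kidney also make. Its probe set, 1426808_at, had 146 and 56.9, a difference of 1.45 log2 units (2.73-fold), with the Chow value at 1.27 times the median.

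**Figure D2:**
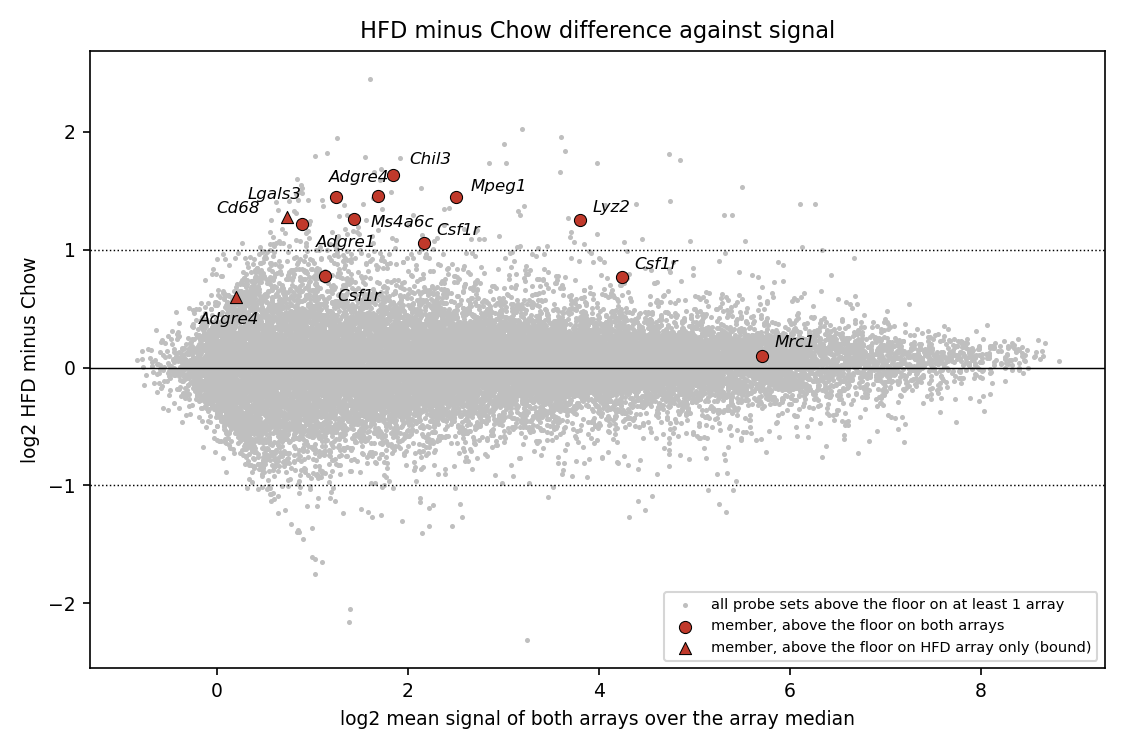
HFD minus Chow log2 difference (vertical axis) against the log2 mean signal of both arrays over the array median (horizontal axis) for all 23419 probe sets above the floor on at least 1 array (grey) and the 13 macrophage marker probe sets (red). Triangles are lower bounds, and dotted lines mark 2-fold. Most members lie along the upper edge of the grey cloud, while Mrc1 lies inside it near 0.

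Over the 10 probe sets other than that of Mrc1 above the floor on both arrays, the differences ran from 0.77 (Csf1r) to 1.63 (Chil3), or 1.70-fold to 3.10-fold, while the deposited signals of the same probe sets in Chow ran from 49.8 to 627. Of the 13 probe sets, 8 ranked among the first 100 of 23419 by difference. Scatter depends on signal, at 0.37 in the second decile of brightness, where Adgre1 and the dimmest Csf1r probe set lie, and 0.16 in the tenth, where Mrc1 lies. Of the 11 member probe sets above the floor on both arrays, 9 differed by more than 3 times the scatter of their decile, against 1.49% of all such probe sets. The 2 others were Mrc1 and the dimmest Csf1r probe set, the latter at 2.13 times. That scatter mixes measurement noise with real differences and carries nothing on variation between mice. The members were chosen with this contrast known, so these ranks and counts are a description only. The summed deposited signal of the 10 genes was 5438 in HFD and 3779 in Chow, and without Mrc1 it was 3144 and 1511.

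Ligands and lineage regulators differed less. Of the genes for ligands of the CSF1 receptor, Csf1 had 1577 in HFD and 1330 in Chow (0.33 log2 units) and Il34 had 285 and 268 (0.17). Other Csf1 probe sets differed by -0.18 to 0.28, so its direction was not the same in all 4. Of 9 transcription factor genes of the lineage, 7 were above the floor, 5 higher and 2 lower, 0 by 2-fold, with a median of 0.15. By comparison, 62.2% of all genes above the floor were higher. That median takes the brightest probe set of each gene. Maf entered at 0.048, with its other probe sets above the floor at 0.31 to 0.61. Zeb2 entered at -0.035, with its others at -0.79 to 0.22. Spi1, which encodes PU.1, was near the array median with 64.1 and 41.3, at least 1.51-fold higher. Cebpa, a regulator of myeloid and other cells, differed by 0.90 and Id2 by 0.41, with its dimmer probe sets at 0.75 and at a bound of -0.12.

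Further macrophage genes were often too dim to compare. Of 20 other surface receptor and adaptor genes with a probe set, 12 were under the floor on both arrays, among them the defining markers Itgam, Aif1, Fcgr1 and Cd163. The 8 above it had a median of 0.20, with 7 higher and 1 lower, where 62.2% of all genes were higher. Of the 8, 1 reached 2-fold (0.722% of all genes): Clec7a, the beta-glucan receptor dectin-1, with 135 in HFD and 64.3 in Chow (1.15 log2 units). Tyrobp, a signalling adaptor, differed by 0.77 and Cx3cr1, the fractalkine receptor, by a bound of 0.49. Cd14 (0.27), Axl (0.13), Mertk (0.095) and Msr1 (0.095) differed less. The Ccr2 probe sets, named after their values were seen, disagreed, at -0.033 and a bound of 0.77. All 3 C1q genes, which macrophages transcribe for the first complement component, were above the floor in HFD only, so they could only come out higher. C1qb was at least 2.22-fold higher in its brightest probe set, with the others at bounds of 0.94 and 0.56 log2 units. C1qc was at least 1.73-fold higher and C1qa at least 1.71-fold.

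Lysosomal and phagocytic genes, many of which other cells also use, had a median of 0.30. Of 13 that could be compared, 12 were higher (62.2% of all genes) and 2 reached 2-fold (0.722% of all genes). The 2 were Cybb, the catalytic chain of the phagocyte oxidase (1.79), and Ctss, a cathepsin of antigen-presenting cells (1.13, with 914 in HFD and 443 in Chow). Ncf1 differed by 0.63, and a second, dimmer Cybb probe set by a bound of 0.28. The family relatives of the members showed no shared direction. Of 11 above the floor, 8 were higher and 3 lower, with a median of 0.033. Lyz1 was the only one at least 2-fold higher. Next came Ms4a4c and Ms4a6b, relatives of Ms4a6c, at bounds of 0.61 and 0.54. The mannose receptor relative Mrc2 differed by -0.062 and the galectins Lgals1 and Lgals9 by 0.022 (second probe set -0.14) and 0.0040.

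Genes of macrophage activation states were mostly under the floor. For alternative activation 9 of 11 genes with a probe set were under it on both arrays, including Arg1 and Retnla, although Chil3 of the same programme was at 229 in HFD. The 2 above it were Il4ra (0.32) and Tgm2 (-0.027). For classical activation 9 of 13 were under it, including Nos2, Tnf and Il6. Il1b differed by 1.42, Ptgs2 by 0.91 and Fpr2 by a bound of 0.56, while Cxcl10, the other one above the floor, differed by -0.26.

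**Figure D3:**
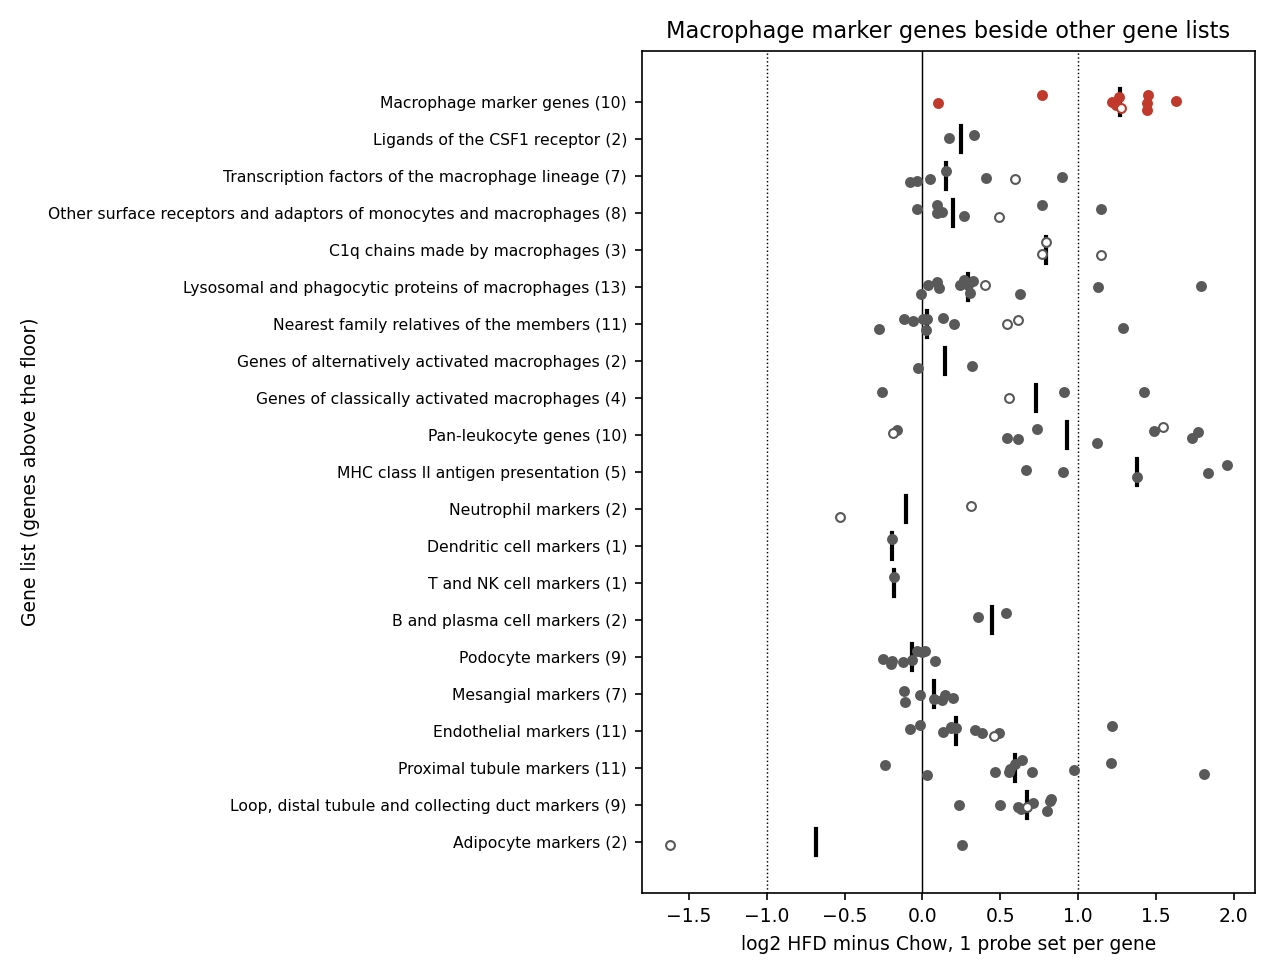
HFD minus Chow log2 difference of each gene above the floor on at least 1 array (horizontal axis), by its brightest probe set, for the 10 macrophage marker genes (red) and 20 other gene lists (grey). Open symbols are bounds, black bars are list medians, dotted lines mark 2-fold, and the number in brackets is the count of genes above the floor. Of the red symbols 8 lie beyond 2-fold, and the list medians of MHC class II, pan-leukocyte and tubule genes also lie to the right of 0.

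Pan-leukocyte and MHC class II genes, which macrophages also express, were mostly higher on the same array, whereas few markers of other leukocyte types could be compared. Of 10 pan-leukocyte genes, 8 were higher (5 of them past 2-fold) and 2 lower, and the median was 0.93. Among all genes above the floor 62.2% were higher and 0.722% were so by 2-fold or more. The largest pan-leukocyte differences were those of Laptm5 (1.77), Ptprc (1.73) and Selplg (a bound of 1.55). The 2 lower were Fcer1g (-0.16) and Vav1 (a bound of -0.19). The Laptm5 probe sets disagreed, the dimmer ones standing at 0.47, at a bound of 0.30 and at -0.91. The summed deposited signal of the 10 pan-leukocyte genes was 2103 in HFD and 1063 in Chow. Of 5 MHC class II genes above the floor all 5 were higher, 3 past 2-fold, and the median was 1.38, led by H2-Eb1 (1.96), Cd74 (1.84) and H2-Aa (1.38). Neutrophil markers summed to 191 in HFD and 198 in Chow, with 0 of 9 above the floor on both arrays. S100a8 was lower in HFD, at a bound of -0.53, and Csf3r higher, at a bound of 0.31. Of the dendritic cell markers 1 of 9 was above the floor (Zbtb46, -0.20, with its dimmer probe sets at 0.22 and 0.25), of the T and NK cell markers 1 of 9 (Cd8a, -0.18), and of the B and plasma cell markers 2 of 6 (Ighm 0.54 and Jchain 0.36).

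Tubule markers were higher on the HFD array too. Of 11 proximal tubule genes, all above the floor, 10 were higher (62.2% of all genes) and 2 past 2-fold (0.722% of all genes). Their median was 0.59, with a summed signal of 12475 in HFD and 8776 in Chow. The largest were Slc13a1 (1.81, with its second probe set at -0.28), Slc22a6 (1.21) and Cyp2e1 (0.97). Of 12 loop, distal tubule and collecting duct genes 9 were above the floor and all 9 were higher, 0 past 2-fold, at a median of 0.67 and with a summed signal of 8790 and 6157. Slc12a3 (0.83), Calb1 (0.82) and Cldn8 (0.80) led them, and Foxi1 was under the floor on both arrays. The lowest deposited signal in these lists, by the brightest probe set, was that of Foxi1 in HFD, at 4.03. The part of tubule RNA in the macrophage gene differences was not tested. In the macrophage marker genes, chosen with this contrast known, the median difference was 1.27 by the brightest probe set.

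Markers of the tuft's own cells had medians closer to 0. Of 9 podocyte genes 7 were lower and 2 higher, with a median of -0.064, and the largest differences were those of Clic5 (-0.25), Cd2ap (-0.20) and Wt1 (-0.20). Of 7 mesangial genes 4 were higher and 3 lower, with a median of 0.077, from -0.12 (Pdgfrb, with a second probe set at 0.29) to 0.20 (Agtr1a). Of 11 endothelial genes 9 were higher (62.2% of all genes), with a median of 0.22, led by Vwf (1.22), Plvap (0.50) and, at a bound of 0.46, Stab2. Stab1 and Lyve1 were named after their values were seen. Stab1, a scavenger receptor that some macrophages share with endothelium, had 1126 in HFD and 945 in Chow (0.34), and the lymphatic and sinusoidal marker Lyve1 was under the floor on both arrays. Adipocyte markers were under the floor on both arrays for 4 of 6 genes, Adipoq among them, while Fabp4 differed by 0.25 in its brightest probe set and by -0.24 to 0.44 in the others, and Car3 by a bound of -1.62.

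**Figure D4:**
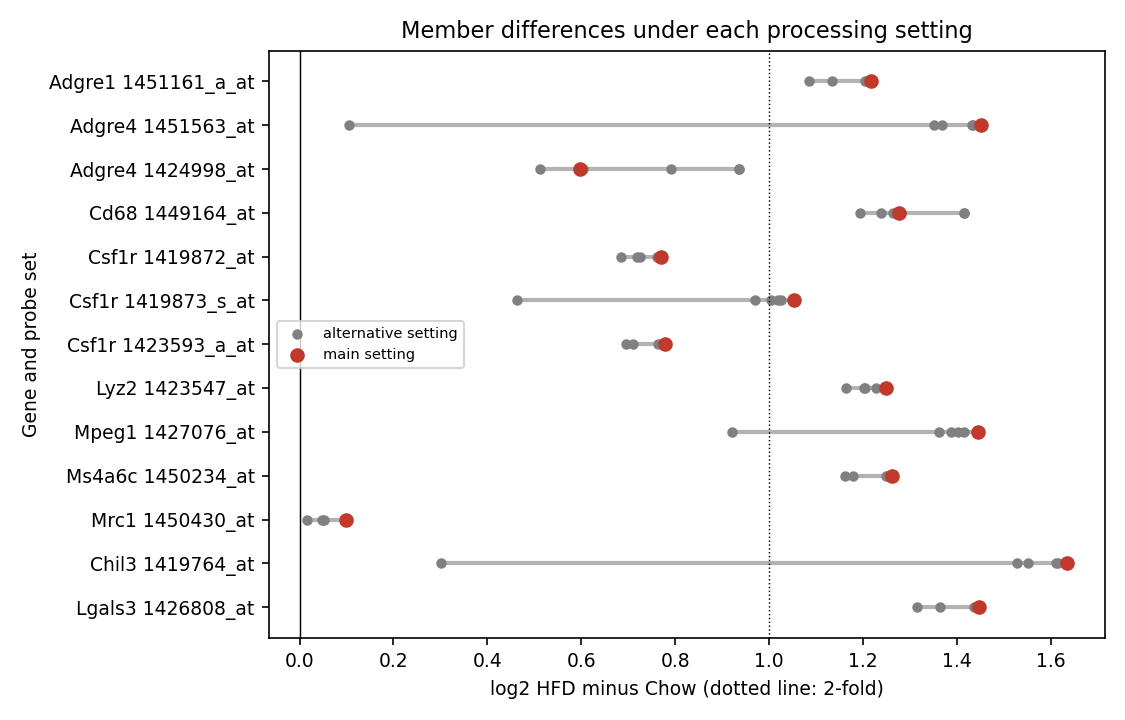
HFD minus Chow log2 difference (horizontal axis) of the 13 macrophage marker probe sets with the settings used above (red) and under up to 7 alternative settings of scaling and floor (grey), with a line over the range. Every value is above 0, and the lowest values of Adgre4, Chil3, Mpeg1 and the second Csf1r probe set come from the floor at the 70th percentile.

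The direction of the 13 probe sets was the same under each scaling tried. In each of 7 alternatives of scaling or floor, every member probe set above the floor was higher in HFD. Leaving out the centring moved each difference by 0.083. All probe sets but that of Mrc1 stood at 0.596 or more with the main settings, so their direction had little room to change. Mrc1, at 0.10, lay under the median of 0.24 over the mouse control probe sets, and scaling to those was not tried. Lyz2 kept at least 2-fold under all of them (2.24-fold to 2.37-fold). With the floor at the 70th percentile 7 probe sets were left, and of these Lyz2 alone reached 2-fold, because the Chow values of the dimmer members lay under that floor and were raised to it. Over all probe sets 42 of 13978 reached 2-fold upward at that floor.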

How the data were processed

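Total RNA of glomeruli was extracted with an RNeasy kit, taken through a two-cycle amplification that ends in biotin-labelled cRNA, and hybridised to Affymetrix Mouse Genome 430 2.0 arrays, per the labels' protocols and the design text. The deposited values are probe set intensities on a linear scale, 1 column per array. GeneSpring 7.3.1 was used by the authors to compare the diets, per the series' design text. Probe summarisation, scaling and detection calls are not given in the sources used here, and with 1 array per diet the number of arrays limits the precision. Of 45101 probe sets, 64 controls were set aside. Each array was divided by its median, values under that median (the 50th percentile floor) were raised to it, log2 was taken, and Chow was subtracted from HFD. Symbols are those of the 2016 platform annotation, which names 1 gene for 34945 probe sets, several for 932 and leaves 9160 unnamed here. All 14 member probe sets had the same symbol in RefSeq by Entrez identifier. A gene stands for its probe set with the highest mean log2 signal. The fold for a count was 2. All members are named with every probe set, and from each of 20 other gene lists up to 3 genes above the floor with the largest difference, plus relatives, ligands, receptors and defining markers of the members. Further genes of the transcription factor, surface receptor and pan-leukocyte lists are named so that level and lower ones are shown. The members and lists were chosen with earlier results of these data known. With 2 arrays no gene was named for likeness of pattern, and ranks by difference are given. Alternatives were no centring, quantile normalization, a locally weighted fit on signal (span 0.3), a floor lowered to the 30th or lifted to the 70th percentile, no floor, adding the 25th percentile instead of a floor, no shared probe sets, 1 value per gene, and thresholds of 1.5-fold and 3-fold. The procedure was tested on simulated data, with changes planted only in brighter probe sets above the floor on both arrays. The dimmer members and the bounds were therefore not covered. Python 3.11.15, numpy 2.4.6, pandas 2.3.3 and statsmodels 0.14.6 were used.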

Additional observations from a re-analysis of the deposited data

Results flagged for a closer look

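Probe set 1425451_s_at names both Chil4 and Chil3 and so lies outside the rule for the members. Its deposited signals were 113 (HFD) and 41.2 (Chow), the latter under the array median, a lower bound of 1.42 log2 units (at least 2.67-fold). It was flagged because its HFD signal was above the floor and outside that rule. A probe set above the floor on the HFD array only always comes out higher, so the sign of this bound carries no information. Since it also names the member Chil3, its signal cannot be assigned to either gene alone. The probe set naming Chil4 alone was under the floor on both arrays.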

How the results depend on the processing

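The count of member probe sets at least 2-fold higher was 9. In the alternatives that kept the 2-fold threshold it was 8 or 9, except with the floor at the 70th percentile. There it was 1 (Lyz2) and the median difference was 0.46. With 1 value per gene the count was 8 of 10 genes. Over all probe sets it was 144 of 23419 with the main settings and 735 of 33746 with the floor at the 30th percentile. With no floor it was 4857 of 45037, and with the floor at the 70th percentile 42 of 13978. With a threshold of 1.5-fold the member count was 12 (3.66% of all probe sets), and with 3-fold it was 1, Chil3 (0.0897%). The member count at least 2-fold lower was 0 in every alternative, while over all probe sets it was 4537 with no floor. Without centring 8 were at least 2-fold higher, and over all probe sets 106 were higher and 96 lower by 2-fold, against 144 and 69 with centring. Of 85 values of single member probe sets under the alternatives, 79 moved by less than the scatter at their signal. No paired analysis was possible because each diet has 1 array. Variation between mice was not measured, and signals near the array median have no detection call here.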
